A study of Mus musculus with 1470 samples.

Results

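Iron handling and BMP signal genes were followed across the cell classes of the mouse liver and across a normal and a high-fat diet. The group held 9 genes, all found by symbol among the 14915 gene rows of the expression table: the BMP ligands Bmp2 and Bmp6, the iron exporter ferroportin (Slc40a1), haem oxygenase 1 (Hmox1), the ferritin heavy and light chains (Fth1 and Ftl1), the haemoglobin-haptoglobin receptor Cd163, the phagosomal iron transporter Nramp1 (Slc11a1) and the transferrin receptor (Tfrc). They were listed by name, with earlier results of these data known, and no threshold on a measured value entered the list. Single liver non-parenchymal cells (NPCs) came from 3 male wild-type C57BL/6J mice on a normal chow diet (ND) and 3 on a high-fat diet (HFD, 60% of calories from fat) for 9 weeks from 5 weeks of age. Livers were perfused and digested with collagenase, hepatocytes were pelleted, and live NPCs were sorted one by one into plates for full-length Smart-seq2 sequencing, which carries no molecular identifiers.

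The table held 1470 cells, 718 from ND and 752 from HFD mice, with 24 to 53 KC-like and 33 to 107 endothelial-like cells per mouse. The number of exon reads behind a cell, estimated from the spacing of its low values, had a median of 86591 to 197787 per mouse. The median number of genes at 1 RPKM (reads per kilobase of transcript, scaled to the mapped reads of the cell) or more ran from 1595.5 in mouse HFD2 to 3163 in mouse HFD3. Clustering without the 9 genes gave 10 named classes, of which Kupffer cell-like (KC-like, 247 cells), endothelial-like (458), T-cell-like (20.6% of the cells), B-cell-like (253), NK-like (52) and monocyte-derived and dendritic-like cells (52) had at least 5 cells in at least 5 mice. Each named class held from 1 to 7 of its own markers among the 10 leading genes of its clusters, with only S100a4 in monocyte-derived and dendritic-like cells. Examples were Clec4f, Vsig4 and Cd5l in KC-like cells and Clec4g, Dnase1l3 and Gpr182 in endothelial-like cells. Levels are means of log2(RPKM + 1) over the cells of a class within a mouse, and the mouse is the replicate (n = 6 unless stated, ± SD).

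The liver sets the iron supply of the body. Its sinusoidal endothelial cells secrete BMP2 and BMP6, which act through BMP receptors on hepatocytes to raise hepcidin, the peptide hormone that removes ferroportin from cell surfaces. Kupffer cells take up old red cells and haemoglobin, split haem with haem oxygenase, store the iron in ferritin or release it through ferroportin. Several of these messenger RNAs carry an iron-responsive element (IRE), a short hairpin that binds iron regulatory proteins when iron is low, which blocks translation from a 5′ UTR and protects the RNA from decay from a 3′ UTR.

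The IREs are shown because they mark genes that are regulated by iron after transcription, at translation for the 5′ elements and at RNA stability for the 3′ elements. Transcripts were searched on their own strand for a C, 5 further bases and the loop CAGTGN, in which the 5 bases before the loop had to pair with the 5 bases after it. A match lay in the 5′ UTR of 20 of 21877 coding genes (0.0914%) and in the 3′ UTR of 0.539% of them. In the sequences the capitals mark the bulged C and the loop CAGTGN, each run is 27 bases read 5′ to 3′ on the transcript strand, and positions are on GRCm38, from GENCODE M21 transcripts.
Slc40a1, 5′ UTR, chr1:45925466-45925492, minus strand: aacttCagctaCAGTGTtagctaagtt
Fth1, 5′ UTR, chr19:9982733-9982759, plus strand: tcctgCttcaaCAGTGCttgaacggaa
Ftl1, 5′ UTR, chr7:45459780-45459806, minus strand: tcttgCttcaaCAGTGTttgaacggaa
Tfrc, 3′ UTR, chr16:32631220-32631246, plus strand: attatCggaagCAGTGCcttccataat
Tfrc, 3′ UTR, chr16:32631599-32631625, plus strand: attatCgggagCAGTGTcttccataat
Tfrc, 3′ UTR, chr16:32631664-32631690, plus strand: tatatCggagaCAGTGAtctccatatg
Tfrc, 3′ UTR, chr16:32631711-32631737, plus strand: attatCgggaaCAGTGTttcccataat

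Of the 9 genes, 4 therefore held a match: the exporter and both ferritin chains in the 5′ UTR and the transferrin receptor with 4 elements in the 3′ UTR. Bmp2, Bmp6, Hmox1, Cd163 and Slc11a1 had 0 matches in the UTRs of the transcripts searched. Among the 95 other iron, haem and BMP genes listed, 1 held a match, Alas2, the erythroid enzyme that starts haem synthesis, in its 5′ UTR. Only the longest coding transcript of each of these 95 genes was searched, and the stem had to pair without a break. A gene without a match may therefore still carry an IRE.

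**Figure D1:**
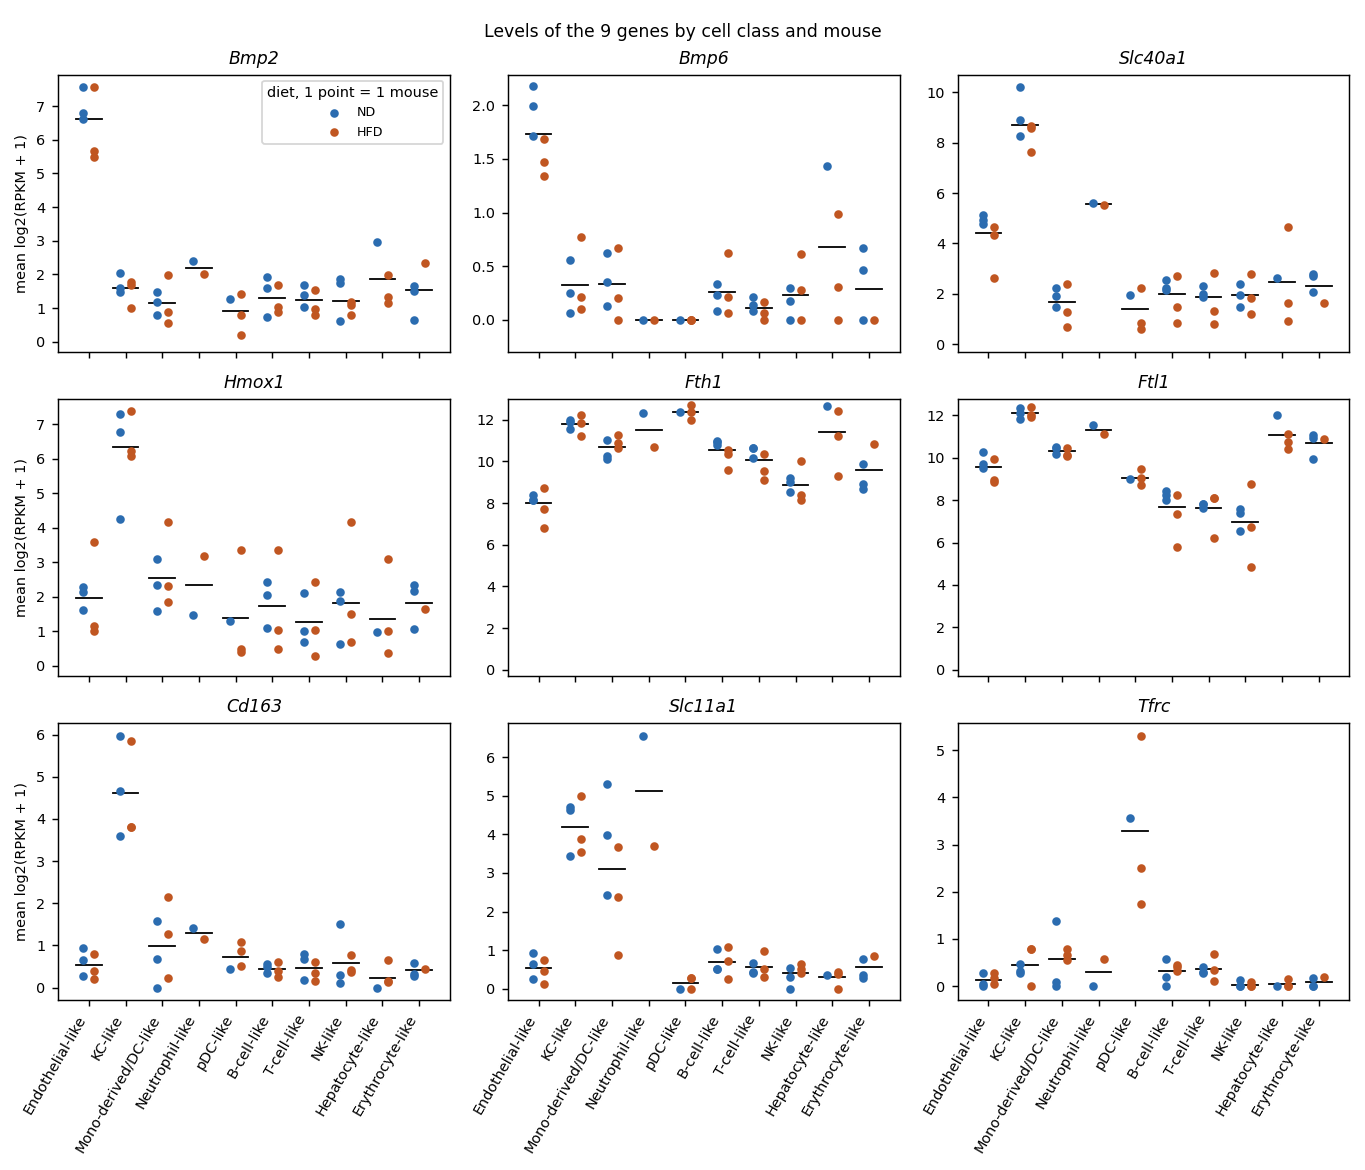
Level of each of the 9 genes, as mean log2(RPKM + 1), by cell class. Each point is 1 mouse (ND or HFD by colour) and each bar the mean over mice. Bmp2 and Bmp6 stood highest in endothelial-like cells, whereas Slc40a1, Hmox1, Ftl1 and Cd163 stood highest in KC-like cells, and the mean of Tfrc was 3.28 in pDC-like cells and at most 0.58 in the other 9 classes.

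Bmp2 (chr2:133552159-133562896, GRCm38) was highest in endothelial-like cells in every mouse. Its level in endothelial-like cells was 6.63, 6.80 and 7.57 in mice ND1 to ND3 and 7.57, 5.48 and 5.67 in HFD1 to HFD3, a mean of 6.62 ± 0.90. The highest level in any KC-like sample was 2.03, so the classes did not overlap. Bmp2 was found at 1 RPKM or more in 413 of 458 endothelial-like cells (90.2%), at a median of 305.1 RPKM in those cells.

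Outside the endothelium Bmp2 was low. The class means were 1.59 ± 0.34 in KC-like, 1.31 ± 0.49 in B-cell-like, 1.23 in T-cell-like, 1.22 in NK-like and 1.14 in monocyte-derived and dendritic-like cells, and no neighbours in that order differed beyond their spread (exact sign-flip tests over 6 mice, p = 0.188 to 0.938). From the first to the last of these, KC-like cells were higher in 5 of 6 mice (difference 0.45, exact sign-flip test, p = 0.0625). In the small classes Bmp2 was 2.20 in neutrophil-like (2 mice), 1.85 in hepatocyte-like, 1.53 in erythrocyte-like and 0.92 in pDC-like cells (4 mice each). Although 57.7% of B-cell-like and 56.8% of T-cell-like cells had at least 1 RPKM, their median was 3.90 and 3.24 RPKM, and 1 read of Bmp2 was worth 1.42 to 3.25 RPKM at the median depth of a mouse. On the RPKM scale, B-cell-like cells held 0.833% of the endothelial Bmp2 level (median of 6 mice) and 1.60% of the summed level of the 12 endothelial markers. KC-like cells held 1.21% of the Bmp2 level and 2.85% of the markers, and mouse HFD3 was highest for both, at 9.89% and 9.69%. The part of RNA carried over from endothelial cells in these low levels was not tested.

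Bmp6 (chr13:38345716-38500314) was also highest in endothelial-like cells, at a lower level than Bmp2 and in fewer cells. Endothelial-like means were 2.0, 2.18 and 1.72 in ND1 to ND3 and 1.47, 1.35 and 1.69 in HFD1 to HFD3 (1.73 ± 0.31), all above the highest KC-like value of 0.77. Bmp6 reached 1 RPKM in 28.6% of endothelial-like cells, with a median of 68.7 RPKM in those, and 13.1% of endothelial-like cells had 100 RPKM or more. The other 5 of the 6 classes lay between 0.11 and 0.33, and Bmp6 was listed at 0 in all pDC-like and neutrophil-like means. Hepatocyte-like cells had 1.43 in ND1, above the lowest endothelial-like value, and 0, 0.98 and 0.30 in HFD1 to HFD3. Bmp6 reached 1 RPKM in 28.2% of these 39 cells, at a median of 5.52 RPKM. Most endothelial-like cells with Bmp6 also had Bmp2, which was found in 90.2% of all endothelial-like cells. Bmp6 was found in 23.8 to 39% of the cells with Bmp2 in the 6 mice and in 0 to 20% of the cells without it, which numbered 4 to 20 per mouse. Both genes rose with the number of genes detected in a cell (median Spearman correlation within mice 0.19 for Bmp2 and 0.16 for Bmp6), and the part of depth was not tested.

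As shares of the RPKM summed over all cells of a mouse, endothelial-like cells held 95.8 ± 5.49% of Bmp2 and 96.4 ± 2.90% of Bmp6, while making up 30.1% of the cells. These shares rest on the sorted cells, and they hold nothing on stellate cells or on the hepatocytes removed before the sort. Of the other BMP ligands listed, 7 were in the table (among them Bmp4, Bmp5, Bmp7 and Gdf2, which encodes BMP9), and none of them reached a class mean of 1 in the 6 classes or exceeded a mean of 0.08 in endothelial-like cells. Bmp2 and Bmp6 were thus the ligands measurable in the endothelial-like cells.

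**Figure D2:**
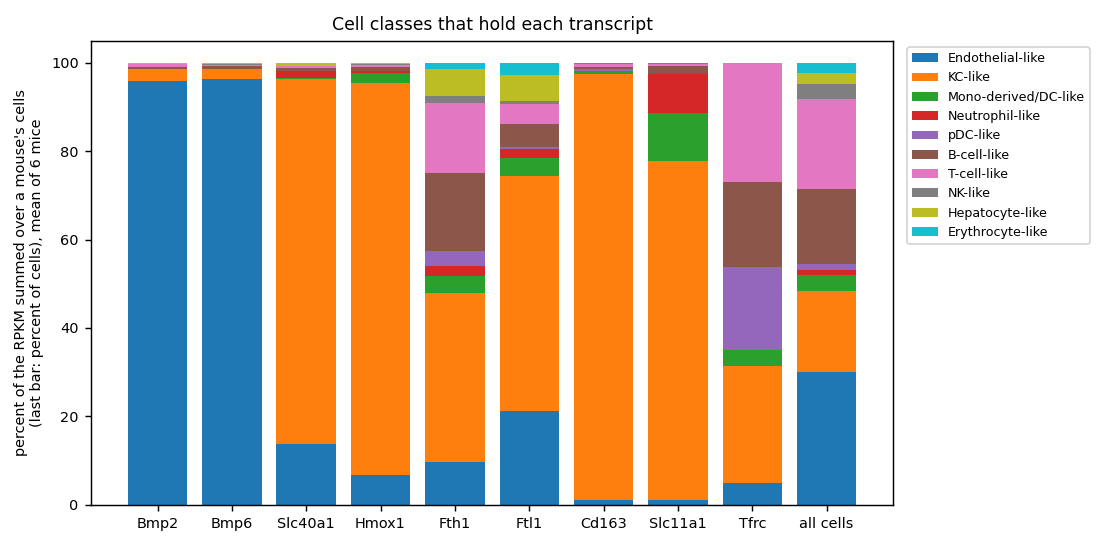
Share of each gene's summed RPKM held by each cell class, as the mean of 6 mice in percent, with the share of cells in the last bar. Endothelial-like cells held 95.8% of Bmp2 with 30.1% of the cells, and KC-like cells 96.4% of Cd163 and 82.6% of Slc40a1 with 18.2% of the cells.

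Ferroportin, the only known cellular iron exporter, was the member with the widest span between classes. Slc40a1 (chr1:45908070-45926532) had KC-like levels of 8.29, 10.23 and 8.89 in ND1 to ND3 and 8.65, 7.62 and 8.60 in HFD1 to HFD3, a mean of 8.71 ± 0.86, and 95.5% of KC-like cells had at least 1 RPKM. Endothelial-like cells came next among the 6 classes, at 4.76, 4.92 and 5.15 in the ND mice and 4.33, 2.64 and 4.66 in the HFD mice (4.41 ± 0.91). Every mouse had more in KC-like than in endothelial-like cells, and the highest endothelial-like value, 5.15, lay under the lowest KC-like value.

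The endothelial-like level of Slc40a1 stood above that of the lymphocytes. It exceeded the B-cell-like level by 2.41 in 6 of 6 mice (exact sign-flip test, p = 0.0312, the smallest that 6 mice allow). Of the 45 tests of neighbouring classes over the 9 genes, 13 had this p, which is 0.108 after Benjamini-Hochberg adjustment over the 45, so no step in the orders passed adjustment by the exact test. On the RPKM scale the endothelial-like cells held 8.57% of the KC-like Slc40a1 level (6.28 to 11.1% over mice) but 0.715% of the summed level of the 10 KC markers (0.521 to 2.65%). In B-cell-like cells the same values were 0.785% for Slc40a1 and 0.910% for the KC markers. The share of Slc40a1 in endothelial-like cells thus exceeded that of the KC markers in each mouse. KC-like cells held 82.6% and endothelial-like cells 13.8% of all Slc40a1.

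Hmox1 (chr8:75093618-75100593) frees iron from haem and is induced by it. KC-like levels were 4.24, 7.30 and 6.79 in ND1 to ND3 and 6.23, 6.07 and 7.38 in HFD1 to HFD3, with ND1 lowest. The mean of 6.34 ± 1.16 stood above 2.55 ± 0.95 in monocyte-derived and dendritic-like cells in 6 of 6 mice (difference 3.78, exact sign-flip test, p = 0.0312, adjusted 0.108). Expression was uneven from cell to cell: 76.1% of KC-like cells had at least 1 RPKM, at a median of 562 RPKM, and the others were below it. Endothelial-like, NK-like, B-cell-like and T-cell-like cells lay between 1.26 and 1.97.

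Cd163 (chr6:124304636-124330529), by which macrophages clear haemoglobin bound to haptoglobin, was highest in KC-like cells, which held 96.4 ± 1.22% of its summed RPKM. Levels there were 5.98, 3.59 and 4.67 in ND1 to ND3 and 5.86, 3.82 and 3.8 in HFD1 to HFD3, a mean of 4.62 ± 1.07. Mice ND1 and HFD1 stood above the other 4 on this scale, whereas on mean RPKM HFD2 was highest, at 301.96. The next of the 6 classes, monocyte-derived and dendritic-like, reached 0.98 ± 0.83, and its highest mouse value of 2.14 was below every KC-like value. Neutrophil-like cells had 1.17 and 1.41 in the 2 mice with at least 3 of them.

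Slc11a1 (chr1:74375014-74386057) pumps divalent metals out of the phagosome and was shared by the myeloid classes. It reached 4.71, 4.64 and 3.45 in KC-like cells of ND1 to ND3 and 4.99, 3.89 and 3.56 in those of HFD1 to HFD3. Monocyte-derived and dendritic-like cells of the same mice had 4.0, 5.31 and 2.43 in ND and 3.67, 2.37 and 0.88 in HFD. The groups overlapped, and KC-like cells were higher in 5 of 6 mice. Lymphocyte and endothelial-like means were 0.40 to 0.68.

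The ferritin chains were the most abundant of the 9 genes per length, and the heavy and light chains ordered the classes differently. KC-like cells had 11.80 ± 0.36 for Fth1 (chr19:9980600-9985111) and 12.11 ± 0.23 for Ftl1 (chr7:45457944-45459886), with each found in every KC-like cell at 1 RPKM or more. Among the 6 classes endothelial-like cells were lowest for Fth1 at 7.99 ± 0.67, below NK-like cells by 0.89 in 6 of 6 mice (exact sign-flip test, p = 0.0312, adjusted 0.108). For Ftl1 they came after KC-like and monocyte-derived and dendritic-like cells at 9.55 ± 0.55, above B-cell-like cells by 1.87 in 6 of 6 mice (p = 0.0312 and adjusted 0.108 by the same exact test). B-cell-like cells had 10.53 ± 0.52 for Fth1 against 7.67 ± 0.99 for Ftl1, and T-cell-like cells 10.08 against 7.62. On the scale of mean log2(RPKM + 1) every mouse value of the heavy chain exceeded every value of the light chain in B-cell-like cells (at least 9.58 against at most 8.43) and in T-cell-like cells (9.12 against 8.11), and the reverse held in endothelial-like cells (at most 8.75 against at least 8.87). On mean RPKM the chains stayed apart in B-cell-like and T-cell-like cells but overlapped in endothelial-like cells (449 to 1256 for Fth1 and 831 to 1646 for Ftl1), where Fth1 exceeded Ftl1 in HFD1. Both genes have near-identical processed copies elsewhere in the genome, and only uniquely mapped reads were counted, so their absolute values are uncertain.

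Tfrc (chr16:32608896-32632794), which imports transferrin-bound iron and is highest in dividing and iron-hungry cells, was low throughout. Means in the 6 classes ran from 0.03 in NK-like to 0.58 in monocyte-derived and dendritic-like cells, and no neighbours in that order differed beyond their spread (exact sign-flip tests, p = 0.0625 to 0.813). In erythrocyte-like cells it was 0.09. The exception was the pDC-like class, 21 plasmacytoid dendritic-like cells, with 3.55 in ND1 and 5.31, 1.74 and 2.50 in HFD1 to HFD3 (3 to 7 cells each). Tfrc was found in 10 of these 21 cells (47.6%), at a median of 97.1 RPKM, against 35 RPKM in the 10.9% of KC-like cells that had it.

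**Figure D3:**
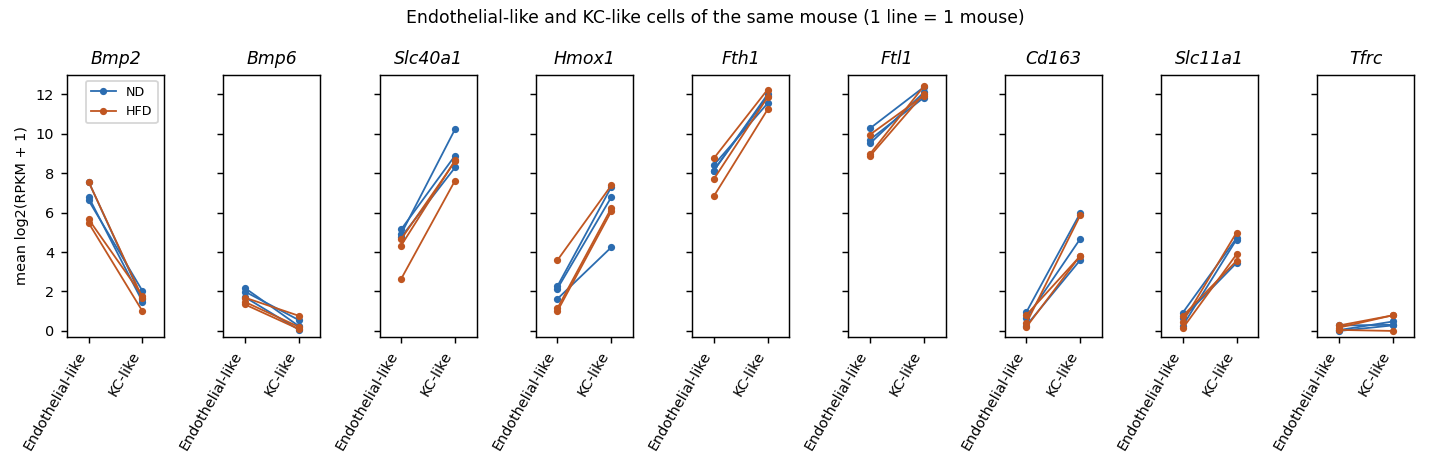
Level of each gene, as mean log2(RPKM + 1), in endothelial-like and KC-like cells of the same mouse, joined by a line per mouse. The 6 lines fall to KC-like cells for Bmp2 and Bmp6 and rise for Slc40a1, Hmox1, Fth1, Ftl1, Cd163 and Slc11a1, whereas those of Tfrc cross.

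The comparison of endothelial-like with KC-like cells put these differences beside all other genes. Of 6899 genes tested with limma, 25.7% differed at an adjusted p under 0.05 (16.5% higher and 9.19% lower in endothelial-like cells), and the median difference was 0.14. A gene was tested if its mean reached 1 in at least 1 of the 6 classes, which 8 members did, Bmp6 only through endothelial-like and Cd163 only through KC-like cells, so that for these 2 a difference follows in part from the filter. The 8 were called, and without the filter Bmp6 (adjusted p = 9.94e-09) and Cd163 (adjusted p = 8.02e-12) were called as well. Bmp2 was higher by 5.03 (SE 0.23, adjusted p = 1.80e-17) and Bmp6 by 1.41 (SE 0.18, adjusted p = 1.48e-07). Lower were Slc40a1 (-4.31, SE 0.26, adjusted p = 7.90e-15), Hmox1 (-4.37, SE 0.36), Cd163 (-4.07, SE 0.29), Fth1 (-3.81, SE 0.25), Slc11a1 (-3.68, SE 0.38) and Ftl1 (-2.56, SE 0.31, adjusted p = 4.54e-08). In each of these 8 genes the mouse values of the classes did not overlap, as held for 14.4% of all genes tested. Tfrc stayed under the filter on low values, and its difference of -0.31 had overlapping mouse values (exact sign-flip test, p = 0.0938).

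KC-like cells differed from monocyte-derived and dendritic-like cells in 6 of the 8 members tested. Here 46% of all genes tested passed, 6.39% higher and 39.6% lower in KC-like cells, with a median of -0.56, and in each of the 6 mice KC-like cells had fewer genes detected per cell, for example 2641 against 4099 in ND1. Against that shift 6 members were higher in KC-like cells: Slc40a1 by 7.05 (SE 0.26, adjusted p = 5.16e-19), Hmox1 by 3.78 (SE 0.36, adjusted p = 8.94e-10), Cd163 by 3.63 (SE 0.29, adjusted p = 1.28e-11), Ftl1 by 1.80 (SE 0.31, adjusted p = 2.50e-05), Fth1 by 1.10 (SE 0.25, adjusted p = 0.000889) and Slc11a1 by 1.09 (SE 0.38, adjusted p = 0.0192). The mouse values did not overlap for the first 4 of these, against 8.89% of all genes tested. Cd163 passed the filter only through KC-like cells, so its difference and non-overlap follow in part from the filter. Without the filter 6 members were again called higher. The call for Slc11a1 was lost without mouse HFD1, HFD2 or HFD3 (adjusted p = 0.0601, 0.0734 and 0.0529), when RPKM were averaged before the logarithm (0.212) and with 10 principal components (0.359). Bmp2 (0.45, adjusted p = 0.109) and Bmp6 (-0.00, adjusted p = 0.987) did not pass, but Bmp2 did when RPKM were averaged before the logarithm (1.12, adjusted p = 0.0333).

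Set against the mean of the other 5 classes, endothelial-like cells held Bmp2 higher by 5.33 (SE 0.18, adjusted p = 2.48e-21) and Bmp6, which was tested through this class alone, by 1.47 (SE 0.14, adjusted p = 2.36e-10), where 16.8% of all genes were called higher and 18.3% lower (35.1% in all). Lower were Fth1 (difference -2.38, adjusted p = 1.10e-11), Slc11a1 (-1.24, adjusted p = 0.00104) and Cd163 (-0.87, adjusted p = 0.00222). The mean of the others includes KC-like cells, which stood highest among the 6 classes for each of these genes and for Hmox1. Endothelial-like Cd163 (0.55) lay within the range of the B-cell-like, T-cell-like and NK-like means (0.44 to 0.58). The same held for Slc11a1 (0.526 against 0.404 to 0.681), whereas Fth1 was lowest in endothelial-like cells among the 6 classes. Slc40a1 was higher by 1.19 (SE 0.20, adjusted p = 1.32e-05), a call lost when classes were set by marker score, where hepatocyte-like cells joined the mean of the others (0.76, adjusted p = 0.0813), or held at least 10 cells, which left 3 other classes without NK-like and monocyte-derived and dendritic-like cells (0.22, adjusted p = 0.363). The calls of Ftl1 (0.67, adjusted p = 0.0291) and Hmox1 (-0.74, adjusted p = 0.0401) were lost under 9 and 11 of the alternatives run, and Hmox1 turned to 0.31 (adjusted p = 0.686) when RPKM were averaged before the logarithm.

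KC-like cells against the mean of the other 5 classes had 6 members higher, where 9.1% of all genes were called higher and 22.5% lower (31.6% in all). These were Slc40a1 by 6.35, Hmox1 by 4.50, Cd163, which was tested through this class alone, by 4.02, Ftl1 by 3.75, Slc11a1 by 3.17 and Fth1 by 2.19. Without the filter 6 members were again called higher. Bmp2 was lower (difference -0.70, adjusted p = 0.00347), a call that was lost when RPKM were averaged before the logarithm (-0.28, adjusted p = 0.515), and Bmp6 did not pass (-0.22, adjusted p = 0.224) except with a minimum of 10 cells (-0.38, adjusted p = 0.0164). The comparison includes the endothelial-like cells among the other classes.

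Around the 9 genes, 95 further genes of iron, haem and BMP biology were listed by function, of which 80 were in the table and 45 could be tested between classes. Endothelial-like cells had 10 of the 45 higher than KC-like cells (22.2%, against 16.5% of all genes) and 11 lower (24.4%, against 9.19%), with a median difference of 0.29 against 0.14 over all genes. Of 4 BMP receptors and co-receptors tested, 3 were higher, among them endoglin (Eng, by 6.08, SE 0.26, adjusted p = 4.97e-18), a co-receptor of endothelial cells, and the type II receptor Bmpr2 (by 2.17, SE 0.29, adjusted p = 3.33e-07). Of 9 mediators and target genes 5 were higher and 0 lower: Id3 (by 2.78, SE 0.33, adjusted p = 2.35e-08) and Id1 (by 1.48), which are transcribed in response to BMP signals, Id4 (by 1.09), and the inhibitory Smads Smad6 (by 1.42) and Smad7 (by 1.15). Of these, Id1, Id4, Smad6 and Smad7 fell outside the rule for naming genes and were added after their values were seen.

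In iron uptake and transport 4 of 7 were lower in endothelial-like than in KC-like cells and 1 was higher. In the haem list 5 of 14 were lower and 1 higher, where 9.19% of all genes were lower and 16.5% higher. The largest differences were in Lrp1, the receptor for haem bound to haemopexin (-4.66, SE 0.27, adjusted p = 2.80e-15), transferrin (Trf, -4.66, SE 0.33, adjusted p = 3.76e-13) and biliverdin reductase B (Blvrb, -3.52, SE 0.40, adjusted p = 1.34e-08). Of 11 genes of storage and sensing, 2 were lower and 0 higher. Monocyte-derived and dendritic-like cells differed from KC-like cells in 22 of the 45 (48.9%), close to the 46% of all genes called, with 11 in each direction (24.4%, against 6.39% of all genes higher and 39.6% lower in KC-like cells). Trf (4.77), Blvrb (4.60) and haemopexin (Hpx, 2.70) were highest on the KC-like side, and the scaffold protein Iscu (-2.11) and the iron chaperones Pcbp1 (-1.92) and Pcbp2 (-1.62) on the other.

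Against the mean of the other classes, endothelial-like cells had 13 of the 45 higher (28.9%, against 16.8% of all genes) and 2 lower (4.44%, against 18.3%), with 3 of 4 receptors and 6 of 9 mediators higher. Eng (6.64), Id3 (4.67) and Bmpr2 (2.30) led, and Lrp1 (-1.60) and Id2 (-1.47) were the 2 lower ones, against a mean that includes KC-like cells. KC-like cells had 13 higher (28.9%, against 9.1% of all genes) and 4 lower (8.89%, against 22.5%), led by Trf (5.56), Blvrb (4.35) and Lrp1 (3.99), with Id2 (-1.82), Pcbp2 (-0.94) and Pcbp1 (-0.76) among the lower ones. The hepatocyte products in these lists need a second value beside them. The 10 hepatocyte markers summed to 2719 to 7447 RPKM in KC-like cells over the 6 mice, to 663 to 4137 in endothelial-like cells and to 41.5 to 288.6 in monocyte-derived and dendritic-like cells, and 9 of the 10 were found in at least 25% of the KC-like cells. In the 39 hepatocyte-like cells the levels were 11.71 for Trf and 5.96 for Hpx. The part of hepatocyte RNA in the KC-like values of these genes was not tested.

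**Figure D4:**
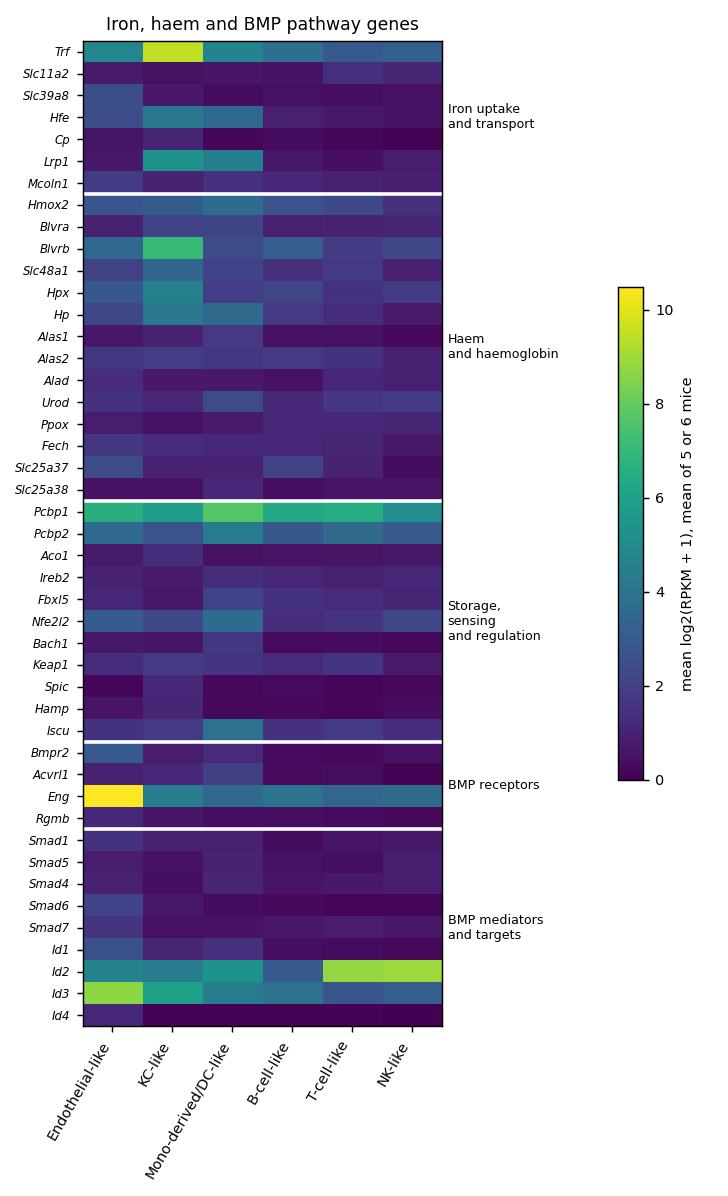
Mean log2(RPKM + 1) of the 45 tested iron, haem and BMP genes in the 6 classes, over mice, with colour for the level. Eng stood at 10.48 in endothelial-like and 4.40 in KC-like cells, and Trf at 4.83 and 9.48.

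Endothelial-like cells fell into 2 clusters, the larger with 329 of the 458 cells, and 92 of the 100 endothelial-like cells of mouse HFD2 were in the smaller one. In the 3 mice with at least 5 cells in both, Bmp2 was lower in the larger cluster: 6.79 against 6.82 in ND2, 7.42 against 8.56 in HFD1 and 3.8 against 5.63 in HFD2. With a pseudocount of 0.1 Bmp2 was higher in the larger cluster in 1 of the 3 mice. The difference of -1.0 had the smallest p that 3 mice allow (exact sign-flip test, p = 0.25), so the design could not show one. Bmp6 (1.54 against 1.75) and Slc40a1 (3.98 against 4.29) had differences of both signs over the 3 mice. Genes known to mark the portal or central end of the sinusoid did not separate the clusters in one direction, as the periportal genes Msr1 and Jag1 were higher in the larger cluster in 3 of 3 mice and Ltbp4 was lower in 3 of 3.

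The study compared the diets, and none of the 5 to 7 members tested per class differed between HFD and ND at an adjusted p under 0.05. Tfrc was under the filter on low values in each class. In endothelial-like cells 6 members were tested and 0 of 4218 genes passed (0%, with 3.18% at an unadjusted p under 0.05), whereas without HFD3 1 gene was higher and 32 were lower in HFD, none of them a member. In KC-like cells 7 members were tested and 1 of 3358 genes passed (0.0298%, with 1.79% at an unadjusted p under 0.05). In B-cell-like cells 0 of 3636 genes passed (0%, 3.41% unadjusted) and in T-cell-like cells 0 of 4330 (0%, 4.53% unadjusted), with 5 members tested in each. With 3 mice per diet an exact permutation test of 1 gene cannot give a p below 0.1.

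Among the members tested, the largest unadjusted difference in endothelial-like cells was that of Slc40a1. The 3 HFD values of 4.33, 2.64 and 4.66 lay below the 3 ND values of 4.76, 4.92 and 5.15, with a mean of 3.87 ± 1.08 against 4.94 ± 0.20. The difference of -1.07 (SE 0.49) had a limma p of 0.0401 and an adjusted p of 0.999 (0.202 to 1 over the alternatives), and the exact permutation p was 0.1. On this scale mouse HFD2 decided its size: without HFD2 the difference was -0.45 (SE 0.36, adjusted p = 0.988). On mean RPKM the values were 102.4, 133.3 and 102.2 in ND1 to ND3 and 81.8, 68.3 and 59.8 in HFD1 to HFD3, again without overlap and with HFD3 lowest (difference after the logarithm -0.68, SE 0.53, adjusted p = 0.995). HFD2 also had the fewest genes detected per endothelial-like cell, 1774.5 against 2470.5 to 3367 in the other 5 mice, and the median of all genes in this comparison was -0.15.

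Bmp6 was the other member whose endothelial-like values did not overlap between the diets, with 1.96 ± 0.23 in ND and 1.5 ± 0.17 in HFD (difference -0.46, SE 0.42, adjusted p = 0.999, exact permutation p = 0.1). It was found in 34 ± 3.97% of ND and 23.8 ± 3.64% of HFD endothelial-like cells (exact permutation p = 0.1). The direction turned when RPKM were averaged before the logarithm, to 0.39 (adjusted p = 0.995), with HFD3 at 162.9 RPKM and the other 5 mice at 39.9 to 56.4. Non-overlap was seen in 6.42% of all genes tested in endothelial-like cells, and in 2 of the 6 members. Bmp2 was 7.0 ± 0.50 in ND and 6.24 ± 1.16 in HFD (difference -0.76, SE 0.51, exact permutation p = 0.3), and HFD1 at 7.57 stood with the highest ND mouse.

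In KC-like cells the diets overlapped for all 7 members tested (4.79% of all genes did not). Slc40a1 had 9.14 ± 0.99 in ND and 8.29 ± 0.58 in HFD (difference -0.84, SE 0.59, adjusted p = 0.9999), with ND2 highest at 10.23 and HFD2 lowest at 7.62. On mean RPKM HFD3 was the lowest mouse instead, at 705.2. Hmox1 differed by 0.45 (SE 0.71) and Cd163 by -0.25 (SE 0.69). Both directions turned with some mouse left out, and that of Cd163 also when RPKM were averaged before the logarithm. The ferritin chains were closest between the diets, with differences of -0.04 (SE 0.52) for Fth1 and 0.03 (SE 0.51) for Ftl1. In B-cell-like cells Fth1 was 10.91 ± 0.08 in ND and 10.16 ± 0.51 in HFD (-0.74, SE 0.49, exact permutation p = 0.1), the only one of the 5 members tested there whose diets did not overlap (9.08% of all genes). Ftl1 had the larger difference there, -1.11 (SE 0.58, limma p = 0.0738, adjusted p = 0.998), with overlap. In T-cell-like cells the difference of Fth1 was -0.80 (SE 0.52), with overlap (8.52% of all genes did not). The medians of all genes were -0.28 and -0.31 in these classes.

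The difference between the diets was also compared between endothelial-like and KC-like cells of the same mice. Of 4743 genes 0 passed (0%, with 2.76% at an unadjusted p under 0.05), and the 8 members tested ranged from -0.59 for Ftl1 to 0.09 for Cd163, with Bmp6 at -0.53. The value of Cd163 turned when RPKM were averaged before the logarithm, with classes by marker score and with some mouse left out. Of the listed iron, haem and BMP genes, 22 to 38 were tested in each diet comparison and 0 passed. The standard errors of the members' diet differences ran from 0.42 to 0.71 in endothelial-like and KC-like cells. Even the endothelial-like difference of -1.07 in Slc40a1 (SE 0.49) did not pass (limma, adjusted p = 0.999). With 3 mice per diet the lack of calls therefore leaves differences of that size possible.

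**Figure D5:**
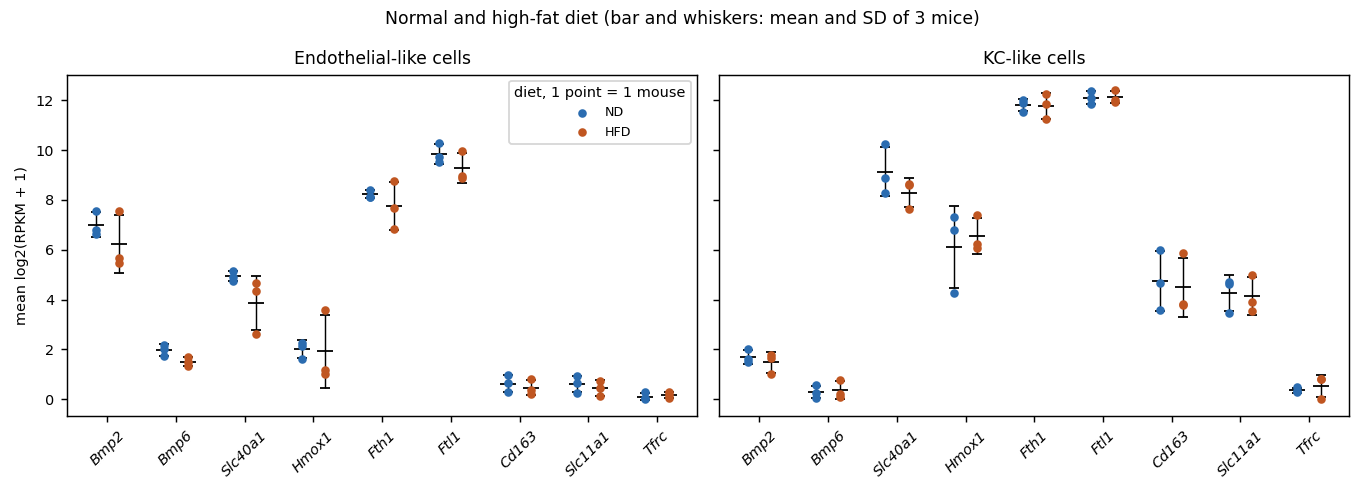
Level of the members, as mean log2(RPKM + 1), in endothelial-like and KC-like cells of ND and HFD mice. Points are mice, and the marks are the mean ± SD of 3. In endothelial-like cells Slc40a1 was 4.94 ± 0.20 in ND and 3.87 ± 1.08 in HFD, with HFD2 lowest at 2.64, and the diets overlapped for all members in KC-like cells.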

How the data were processed

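The deposited table gives RPKM per single cell: per the labels and the study's methods, the authors sequenced Smart-seq2 libraries with 50-base reads, ran bcl2fastq and STAR against mm10, left out reads with several mapping places, computed RPKM on RefSeq genes and removed low-quality cells and doublets before deposit. Depth is therefore known only as an estimate from the spacing of low values, and no doublet caller was run. Human cells were not analysed here.

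Cells were clustered on log2(RPKM + 1) of 1000 variable genes (3 rankings tried, 1 kept on how clusters could be named), with the 9 members and the pathway genes left out, using 20 principal components, 15 neighbours and 12 clusters (scikit-learn 1.9.0, Python 3.11.15). Clusters were named from marker lists. Means of log2(RPKM + 1), pseudocount 1, were taken per class and mouse (at least 3 cells for levels and 5 for tests) and tested with limma 3.58.1 in R 4.3.3 without a mean-variance trend, with Benjamini-Hochberg adjustment over all genes with a mean of at least 1. Class tests shared 1 fit of 6 classes with the mouse as block, and NK-like cells of HFD3 (under 5 cells) were left out of it. Diet tests took 3 against 3 mice. Differences are on the log2(RPKM + 1) scale, which understates changes of low genes. Exact tests were two-sided. Scripts were tested on simulated data. A member was named always. Of the pathway lists, up to 3 genes higher and 3 lower by size were named per class comparison, and for each member the 3 genes most correlated with it. Members and lists were chosen with earlier results of these data known. Alternatives are given in the closing section. Gene positions are from RefSeq (GRCm38.p6).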

Additional observations from a re-analysis of the deposited data

Results flagged for a closer look

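In each group of 4 to 6 mice the highest or lowest mouse was compared with the range of its group, and 5 of 80 groups held a mouse far from the others, where chance gives about 1 in 20. Slc40a1 in endothelial-like cells of HFD2 was 2.64, with the nearest mouse at 4.33. Ftl1 in T-cell-like cells of the same mouse was 6.22 (nearest 7.64). Ftl1 in erythrocyte-like cells of ND3 was 9.96 (nearest 10.89). In hepatocyte-like cells, Slc11a1 of HFD2 was listed at 0 (nearest 0.37) and Tfrc of HFD1 was 0.15 with the other mice at 0. Mouse HFD2 had the fewest genes detected per cell (median 1595.5), and the part of depth in its values was not tested. Its cell names also lack the leading number that the cells of each other mouse share, and mouse and handling cannot be told apart.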

How the results depend on the processing

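Calls of members were stable in count: the number called in the class comparisons stayed within 1.5 times in 66 of 67 values, the exception being 5 in endothelial-like cells against the mean of the others with classes by marker score, and in 85 of 85 for the diets. Of 536 values of single members in class comparisons 498 kept direction and call, 28 lost the call, 2 gained it (Bmp2 and Bmp6, given in the report) and 8 turned. Of 527 values of the 31 results of single members in the diet comparisons 475 kept both and 52 turned, none of them called. The cause of each change was not tested. A minimum of 10 cells left monocyte-derived and dendritic-like and NK-like cells out of the class fit, so that the mean of the others was over 3 classes and the comparison of KC-like with monocyte-derived and dendritic-like cells could not be fitted. With classes by marker score hepatocyte-like cells entered the fit and the mean was over 6. The part of depth in the low values of Bmp6 and Tfrc was not tested.

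Averaging RPKM before the logarithm, which let 12618 genes pass the filter in place of 6899, moved the genes called higher to 1888 (endothelial-like against KC-like, 1139 in the report), 1024 (KC-like against monocyte-derived and dendritic-like, 441), 2370 (endothelial-like against the mean, 1161) and 1297 (KC-like against the mean, 628), and those lower to 639 from 2732 in the second. As shares of the genes tested, those higher were 15% (16.5% in the report), 8.12% (6.39%), 18.8% (16.8%) and 10.3% (9.1%), and those lower in the second 5.06% (39.6%). Without a filter the last 3 counts were 814, 2027 and 1001. KC-like cells had 2609 genes lower than the mean of the others with a minimum of 10 cells and 866 with no replicate block (1550 in the report). With a mean-variance trend the genes higher in HFD were 1 in KC-like, 2 in endothelial-like, 1 in B-cell-like and 1 in T-cell-like cells. The 1 gene lower in HFD in KC-like cells was 0 with a pseudocount of 0.1, averaging first, no filter or each gene's own spread, and 0 to 1 with a mouse left out (0 without ND1 or ND3). In endothelial-like cells genes lower were 1 with 10 principal components and 0 to 32 with a mouse left out (32 without HFD3), and genes higher 0 to 2.

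Turned values with averaging first were Bmp6 in KC-like against monocyte-derived and dendritic-like cells (0.49), Hmox1 in endothelial-like cells against the mean (0.31), the diet differences in KC-like cells of Bmp2 (0.22), Fth1 (0.055), Cd163 (0.45) and Slc11a1 (0.27), those in endothelial-like cells of Bmp6 (0.39) and Fth1 (0.26), that in T-cell-like cells of Ftl1 (0.21), and the difference of diets of Fth1 (0.20) and Cd163 (-0.64). Others were Bmp2 (-0.042) in KC-like against monocyte-derived and dendritic-like cells and Cd163 (-0.10) and Slc11a1 (0.19) in the difference of diets and Hmox1 between diets in T-cell-like cells (0.076) by marker score, Slc11a1 in the difference of diets with 10 principal components (0.21) and 2000 variable genes (0.13), Bmp6 in KC-like against monocyte-derived and dendritic-like cells with 2000 variable genes (0.0034), and Ftl1 between diets in KC-like cells after rescaling cells to an equal sum (-0.057), with 10 principal components (-0.0026) and with 2000 variable genes (-0.0010). With a mouse left out, Bmp6 in KC-like against monocyte-derived and dendritic-like cells ran from -0.16 to 0.087. The diet differences in KC-like cells ran from -0.37 to 0.014 for Bmp2, -0.48 to 1.05 for Hmox1, -0.27 to 0.23 for Fth1, -0.12 to 0.16 for Ftl1, -0.94 to 0.36 for Cd163 and -0.54 to 0.17 for Slc11a1. Hmox1 in endothelial-like cells ran from -0.94 to 0.35, in B-cell-like cells Bmp2 from -0.56 to 0.039 and Hmox1 from -1.09 to 0.34, and in T-cell-like cells Slc40a1 from -0.97 to 0.042, Hmox1 from -0.60 to 0.47 and Ftl1 from -0.61 to 0.34. The difference of diets ran from -0.42 to 0.81 for Cd163, -0.78 to 0.11 for Slc40a1, -1.02 to 0.19 for Hmox1 and -0.49 to 0.38 for Slc11a1. The 1 member with one direction in every mouse between the endothelial-like clusters was Bmp2. Their number was 2 with a pseudocount of 0.1, 2 with averaging first and 2 to 5 with a mouse left out.

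Mice of the 2 diets share numbers, and neither the labels nor the study's methods say whether these pair the mice. The deviations of same-numbered mice correlated at -0.12 to 0.21, and in B-cell-like cells alone each number matched its own best. With the replicate block 0 members were called in any diet comparison, and genes at an unadjusted p under 0.05 went from 3.41% to 5.67% in B-cell-like cells, from 4.53% to 7.41% in T-cell-like cells and from 2.76% to 1.60% in the difference of diets.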

Other observations

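Over the 35 class-by-mouse means of the class fit, the 3 genes most like Bmp2 were Npr1 (Pearson r = 0.985), the angiopoietin receptor Tek (0.985) and Gata4 (0.984), a transcription factor of the sinusoidal endothelium. Those most like Bmp6 were Fam171a1 (0.946), the junctional molecule Jam2 (0.945) and Ces2g (0.938). Slc40a1 was most like Dmpk (0.957), the nuclear receptor Rxra (0.954) and Folr2 (0.940), a marker used to name the KC-like cells, and Cd163 was most like the complement gene C4b (0.967), Cd300ld (0.949) and Ccl24 (0.945). Hmox1 was most like lipoprotein lipase (Lpl, 0.951), properdin (Cfp, 0.944) and Wfdc17 (0.944). These correlations describe class patterns, and their points share mice and libraries.

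The ferritin chains had different neighbours: Ftl1 was most like the lysosomal genes Ctsb (0.966) and Grn (0.945) and Cd302 (0.884), and Fth1 most like Ly6e (0.903), Ctss (0.835) and Ifi30 (0.808). Slc11a1 was most like Cd68 (0.921), Ccl6 (0.914) and Clec12a (0.903). Tfrc, under the filter on low values, was most like Rpl26 (0.817), Eif3a (0.774) and Smarcc1 (0.764).

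From cell to cell within KC-like cells of a mouse, Fth1 and Ftl1 had a median Spearman correlation of 0.42 (0.13 to 0.54 over 6 mice) and Slc40a1 and Hmox1 one of 0.33 (0.17 to 0.41). In endothelial-like cells Bmp2 and Bmp6 had 0.12 (-0.02 to 0.21). Cells of a mouse share library preparation and differ in depth, so these are descriptions.

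Neutrophil-like cells, of which there were 14, had Slc40a1 in every cell at a median of 191 RPKM and Slc11a1 in 71.4% at a median of 449 RPKM. In the 2 mice with at least 3 of them their Slc40a1 means were 5.54 and 5.62. By mean log2(RPKM + 1) the pDC-like cells had the highest Fth1 of the classes, at 12.36 ± 0.30 (n = 4 mice), whereas on mean RPKM neutrophil-like cells were higher (5953 against 5505). In pDC-like cells Ftl1 was 9.06 ± 0.31.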
